A study of Rattus norvegicus with 6 samples.

Results

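Map3k12 and 8 further genes of the JNK pathway were examined in left ventricle of diabetic and non-diabetic rats. The 9 genes were Map3k12, Map3k13, Map3k11, Map2k4, Map2k7, Mapk8, Mapk9, Mapk10 and Mapk8ip1, taken by name from the 26456 gene names on the array, on which they had 11 probes and 29 spots. They were chosen by their log2 differences between the strains on these same arrays, in earlier results that showed Map3k12 far lower in the diabetic strain, so the levels of all 9 are given as a description, with differences and standard errors and with no test.

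RNA was taken from the left ventricle of male rats and hybridised in 1 colour (Cy3) to 1 Agilent rat 4x44K array per sample. The OLETF group (strain OLETF, type 2 diabetes) held 3 samples, aged 27, 28 and 27 weeks for replicates 1, 2 and 3. The LETO group (strain LETO, healthy control) held 3 samples, aged 27, 28 and 28 weeks. OLETF is an inbred, spontaneously obese strain and LETO a separate inbred strain, so diabetes and any other inherited difference between the strains cannot be told apart. The title of every sample marks it as ex vivo left ventricle. The labels name no treatment in either group. They state that the experiments were independent without saying that each array held 1 animal, so the spread given is that between samples.

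The JNK pathway is a kinase relay in which a MAP3 kinase phosphorylates the MAP2 kinases MKK4 and MKK7, which phosphorylate the c-Jun N-terminal kinases, which in turn act on Jun and other proteins. Map3k12 encodes dual leucine zipper kinase (DLK), a MAP3 kinase best known for carrying the signal of axon injury in neurons, and scaffold proteins such as JIP1 hold the kinases of the relay together. In heart muscle the pathway is known as a responder to mechanical, oxidative and metabolic stress.

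The probes for the 3 members whose values did not overlap between the strains are shown first, with their positions in the rat build rn4 as the deposited files give them. Each is 60 bases, copied 5′ to 3′ from the deposited files, and the capitals mark the longest run that the probe shares with a probe of any other gene on the array. The Map3k12 probe lies at chr7:141255682-141255741 on the minus strand, starting at base 2960 of NM_013055. The Map3k13 probe lies at chr11:81326461-81326520 on the minus strand (NM_001013978), and the Mapk9 probe at chr10:35378241-35378300 on the plus strand (NM_017322).
Map3k12: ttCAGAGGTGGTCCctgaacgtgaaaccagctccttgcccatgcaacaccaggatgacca
Map3k13: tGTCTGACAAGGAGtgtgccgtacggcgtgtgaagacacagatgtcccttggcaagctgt
Mapk9: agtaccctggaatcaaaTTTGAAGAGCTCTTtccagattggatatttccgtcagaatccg

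The longest shared run was 12 bases for Map3k12, 13 for Map3k13 and 14 for Mapk9, against a median of 13 bases over all 30367 probes. Over the array, 7.73% of probes shared a run of at least 20 bases with a probe of another gene, and none of these 3 did. GC content was 55.0% in the Map3k12 and Map3k13 probes and 41.7% in the Mapk9 probe, against a median of 45.0% over all probes. Each of the 3 sequences held at least 1 reading frame without a stop codon.

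Levels are given as log2 of the processed spot signal over the 75th percentile of the same array's probes, so that 0 is the signal of a probe at that percentile. All 6 arrays were of like brightness. The 75th percentile was 1228, 887.3 and 1227 intensity units on OLETF arrays 1 to 3, against 1056, 952.5 and 1057 on LETO arrays 1 to 3. Between 75.55% and 79.8% of the spots of an array were well above background, and no spot was saturated. Slide 1 carried all 3 LETO samples together with OLETF 1, and slide 2 carried OLETF 2 and 3, per the file headers, so the slide holds part of the strain comparison. All 10 cardiomyocyte markers were well above background on every array, with summed linear levels of 2820 to 3410 in OLETF and 3000 to 3420 in LETO, so the labelled tissue carried its defining genes.

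Map3k12 was lower in every OLETF ventricle. Its processed signal was 382, 308.2 and 425.5 intensity units on OLETF arrays 1 to 3, against 3378, 3352 and 3781 on LETO arrays 1 to 3. The 3 OLETF values lay together at the low end, the 3 LETO values lay together far above them, and the groups did not overlap. On the log2 scale the levels were -1.68, -1.53 and -1.53 in OLETF, against 1.68, 1.82 and 1.84 in LETO. The means were -1.58 ± 0.09 in OLETF and 1.78 ± 0.09 in LETO (SD, n = 3 each), a difference of -3.36 with a standard error of 0.09, which is 10.2-fold lower in OLETF. The empty stretch between the highest OLETF and the lowest LETO array was 3.20 on the log2 scale, many times the SD within either strain.

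**Figure D1:**
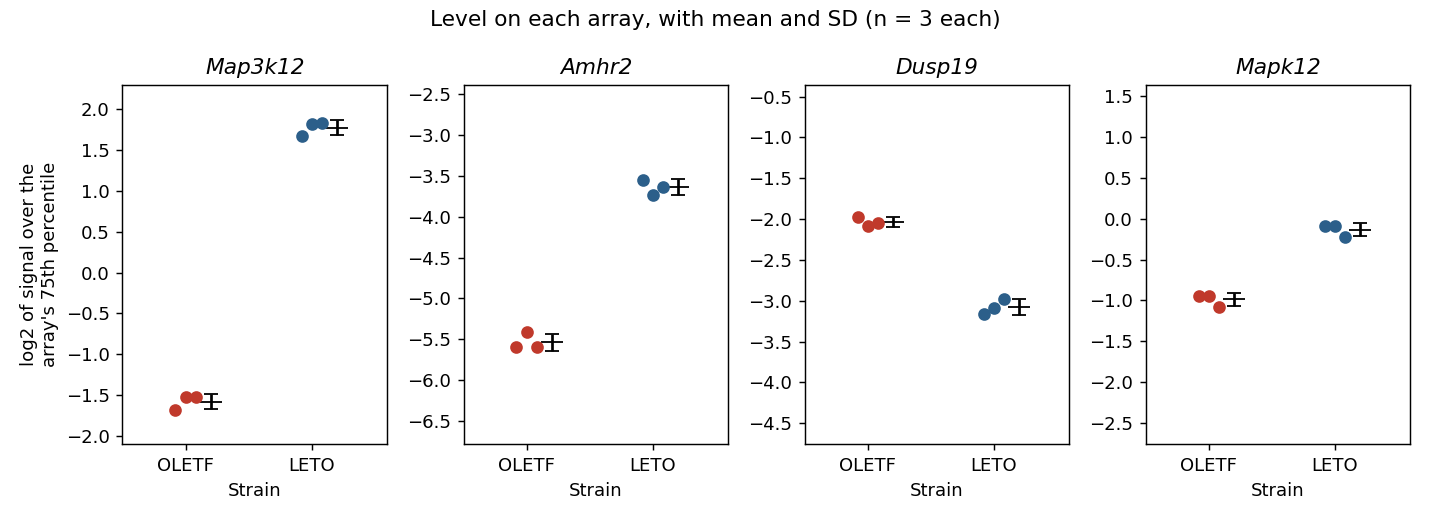
Log2 level over the 75th percentile of each array (y axis) for Map3k12, Amhr2, Dusp19 and Mapk12, with 3 OLETF arrays in red at the left and 3 LETO arrays in blue at the right of each panel. Bars show the mean and SD of 3 arrays, each panel spans the same number of log2 units, and Map3k12 has the widest gap between the strains of the 4 genes.

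The Map3k12 probe stayed well within the measured range in the diabetic strain. Its spot was well above background on every OLETF and every LETO array, so the fold is between measured levels and not a bound. Before background subtraction the OLETF spots read 443.7, 377.5 and 496.2 intensity units, with median local backgrounds of 29, 31.5 and 37.5. The LETO spots read 3660, 3619 and 4032 units, with local backgrounds of 35, 29 and 31.5. Local background was therefore alike in the strains while the spot itself was not.

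A gene was tested if its probe was well above background throughout OLETF, throughout LETO, or in both. Among the 18816 genes tested, Map3k12 had the 9th lowest difference and the 13th largest by size. Its 1 probe, with 1 spot per array, carries the whole of this result. Whether the strains differ in the sequence under this probe, or in the transcript forms that it reads, was not tested. The probe signal alone therefore does not show that the amount of Map3k12 RNA differed to the same extent. On the first slide alone, where OLETF 1 stands against the 3 LETO arrays, the difference was -3.46. In ventricle, a mixture of cells, a lower level from fewer cells of a type and one from less RNA per cell cannot be told apart.

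The 2 other MAP3 kinases among the members did not share the low level. Map3k13 encodes leucine zipper kinase, the closest relative of DLK. Its main probe read 74.19, 53.77 and 74.87 intensity units in OLETF, against 45.86, 49.08 and 50.29 in LETO. On the log2 scale this was -4.05, -4.04 and -4.03 in OLETF, against -4.52, -4.28 and -4.39 in LETO. The 3 OLETF values lay just above the 3 LETO values without overlap.

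The Map3k13 means were -4.04 ± 0.01 in OLETF and -4.40 ± 0.12 in LETO (SD, n = 3 each), a difference of 0.36 with a standard error of 0.09, or 1.28-fold higher in OLETF. The gap between the groups was 0.23. With background corrected by normexp and quantile normalization the difference was 0.10. A second Map3k13 probe, at chr11:81325076-81325135, was not well above background on any array and gives no fold.

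Map3k11, which encodes the mixed lineage kinase MLK3, had levels of -3.85, -3.53 and -3.09 in OLETF, against -3.54, -3.71 and -3.76 in LETO. OLETF 3 was the highest of the 6 arrays and OLETF 1 the lowest, so the LETO values fell inside the OLETF range. The difference was 0.18 with a standard error of 0.19, and it was -0.19 on the first slide alone.

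**Figure D2:**
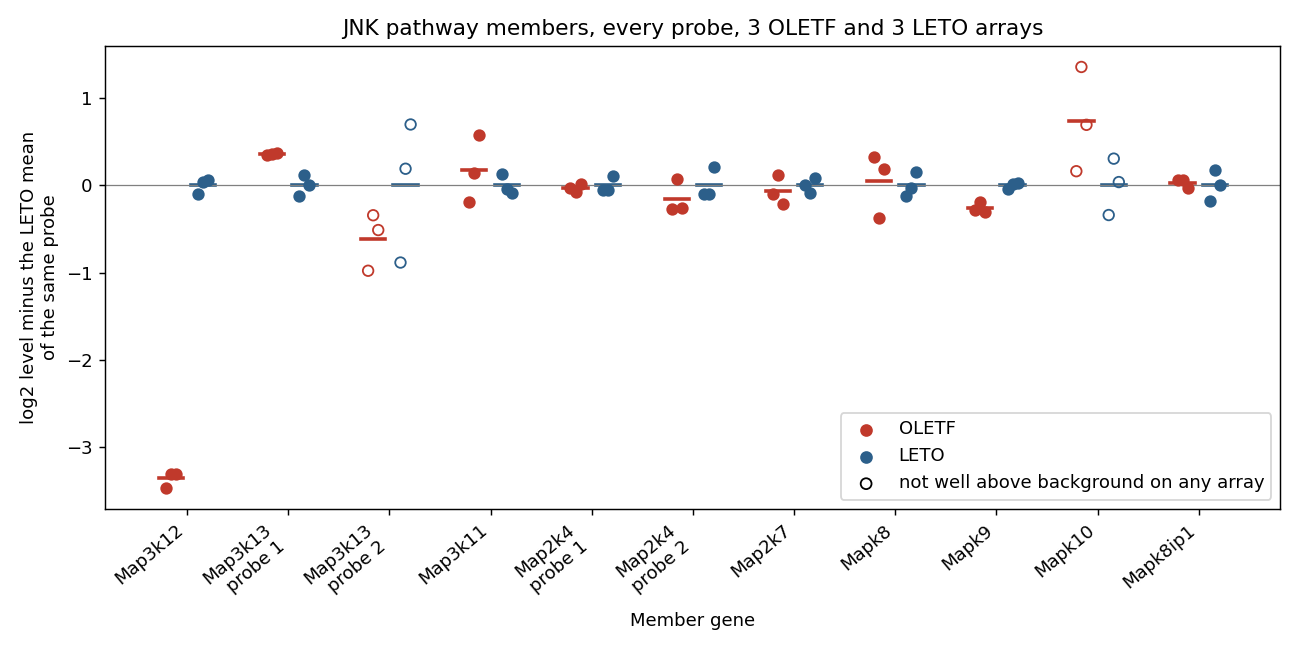
Log2 level of each of the 11 member probes on each array minus that probe's LETO mean (y axis), with 3 OLETF arrays in red to the left of 3 LETO arrays in blue and short lines at the means. Open circles are probes not well above background on any array. The Map3k12 points of OLETF lie more than 3 log2 units down, while the other filled points lie within 1 unit of 0, and Map2k4 probe 2 is the one that stands for that gene.

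Both MAP2 kinases of the pathway overlapped between the strains. Map2k4 encodes MKK4, and its brighter probe (chr10:52041787-52041846) had levels of -1.39, -1.05 and -1.37 in OLETF, against -1.21, -1.22 and -0.91 in LETO. The other Map2k4 probe (chr10:52014623-52014682) had levels of -1.85, -1.89 and -1.80 in OLETF, against -1.87, -1.87 and -1.71 in LETO. In each probe the highest and lowest OLETF arrays lay on both sides of LETO arrays. The differences were -0.16 (standard error 0.14) and -0.03 (standard error 0.09).

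Map2k7 encodes MKK7, the MAP2 kinase that acts on JNKs alone. Its probe had levels of -3.91, -3.68 and -4.02 in OLETF, against -3.80, -3.89 and -3.72 in LETO. The OLETF arrays held both the highest and the lowest value. The difference was -0.06 with a standard error of 0.11.

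Of the JNK genes themselves, Mapk9 alone had non-overlapping values. Mapk9 encodes JNK2, and its levels were -1.42, -1.32 and -1.44 in OLETF, against -1.17, -1.11 and -1.11 in LETO. All 3 OLETF arrays were below all 3 LETO arrays, with a gap of 0.15. The means were -1.39 ± 0.06 in OLETF and -1.13 ± 0.04 in LETO (SD, n = 3 each), a difference of -0.26 with a standard error of 0.08, which is 0.835 of the LETO signal.

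Mapk8 encodes JNK1 and was read from 10 spots per array, of which 9 were usable on LETO 3. Its levels were -3.68, -4.39 and -3.83 in OLETF, against -4.13, -4.04 and -3.87 in LETO. OLETF 1 was highest and OLETF 2 lowest, with the LETO arrays in between. The difference was 0.04 with a standard error of 0.19, and it was 0.33 on the first slide alone.

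Mapk10, which encodes JNK3, the form best known from brain, was not well above background on any of the 6 arrays. Its processed signal was 6.673, 11.03 and 9.635 intensity units in OLETF, against 4.051, 5.718 and 5.268 in LETO. No fold is given, since both strains lay below the level this array can measure.

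The scaffold gene Mapk8ip1, which encodes JIP1, was read from 10 spots per array. Its processed signal averaged 28410, 20570 and 26650 intensity units in OLETF, against 20710, 23870 and 23570 in LETO. Its levels were 4.53, 4.54 and 4.44 in OLETF, against 4.29, 4.65 and 4.48 in LETO. LETO held both the highest and the lowest array, and the difference was 0.03 with a standard error of 0.11.

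Of the 9 members, 8 entered the fit across all genes, and 1, Map3k12, counted as called at the threshold used for the array (limma adjusted p under 0.05), with the lower level in OLETF. Its call followed from the choice of the gene and is a count, not a test. Over all genes tested, 2.55% were called in either direction, 1.5% higher and 1.05% lower in OLETF. Values did not overlap for 3 members, 1 higher and 2 lower in OLETF, where 17.4% of all tested genes had no overlap, 8.92% higher and 8.43% lower. Differences were positive for 4 members and negative for 4, with a median of -0.02 beside a median of -0.01 over all 18816 genes. Since these differences were known when the members were chosen, nothing is read from the counts.

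The rest of the pathway was taken from lists of genes by role, 79 in all, of which 74 were on the array and 70 were tested. Dusp19 was higher in OLETF, and none of the other 69 passed the limma test at an adjusted p of 0.05. The share called over all genes tested was 2.55%, with 1.5% higher in OLETF. The 70 differences were positive for 30 genes and negative for 40, with a median of -0.04 beside -0.01 over all genes. Values did not overlap for 15 of the 70, 7 higher and 8 lower, beside 17.4% of all genes.

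Dusp19 encodes a dual-specificity phosphatase known in cultured cells to act on the JNK relay. Its processed signal was 312.5, 208.5 and 296.5 intensity units in OLETF, against 117.8, 112 and 134.1 in LETO, and the probe was well above background on every array. All 3 OLETF arrays were above all 3 LETO arrays. The levels averaged -2.04 ± 0.06 in OLETF and -3.08 ± 0.09 in LETO (SD, n = 3 each), a difference of 1.04 (standard error 0.09, limma adjusted p 0.00195), which is 2.05-fold higher. On the first slide alone the difference was 1.10 with a limma adjusted p of 0.14. Its probe, shown because it carries the single call among these genes, lies at chr3:63480433-63480492 (NM_001107739, rn4), with capitals for the longest run shared with another gene's probe.
Dusp19: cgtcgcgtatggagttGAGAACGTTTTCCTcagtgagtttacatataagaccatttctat

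The other phosphatases, enzymes that remove the activating phosphates from MAP kinases, were not called. All 8 on the list were tested, 3 differences were positive and 5 negative, and the median was -0.18. Apart from Dusp19 they ran between -0.80 and 0.16. An unadjusted limma p under 0.05 was found for 3 of the 8, Dusp19 among them, beside 2336 of all 18816 genes. The others were Dusp8 and Dusp1, named here after their values were seen, both lower in OLETF without overlap. Their differences were -0.30 (limma adjusted p 0.153) and -0.80 (limma adjusted p 0.285).

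Among the other MAP3 kinases and the activators above them, 26 of 31 listed genes were tested and none was called by limma. An unadjusted p under 0.05 was found for 2 of the 26, beside 2336 of all 18816 genes. Differences were positive for 12 and negative for 14, with a median of -0.02 and a range of -0.55 to 0.58. Traf6, a ubiquitin ligase that passes receptor signals to these kinases, had levels of -0.94, -0.94 and -0.81 in OLETF, against -1.16, -1.26 and -1.08 in LETO. The OLETF arrays lay above the LETO arrays, and the difference was 0.27 with a limma adjusted p of 0.249. Tnik, a kinase upstream of the MAP3 kinases, had levels of -2.30, -2.80 and -2.69 in OLETF, against -2.33, -2.18 and -1.64 in LETO, with overlap and a difference of -0.55 (limma adjusted p 0.341). The Tnik difference was -0.34 without LETO 3 and -0.25 with the slide as a block.

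Map3k2, a MAP3 kinase named here after its values were seen, held the highest difference of that list. Its levels were -1.79, -3.76 and -3.54 in OLETF, against -3.73, -3.52 and -3.58 in LETO. The difference of 0.58 rested on OLETF 1, the other 2 OLETF arrays lying at the level of LETO.

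For scaffolds and adaptors, 7 of 9 genes were tested, 2 differences were positive and 5 negative, and the median was -0.08. None was called by limma, and none was under an unadjusted p of 0.05. Spag9, which encodes the scaffold JIP4, differed by 0.12 (limma adjusted p 0.69). Sh3bp5, which encodes a JNK-binding mitochondrial protein, differed by -0.11 (limma adjusted p 0.864).

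Among genes whose proteins JNKs act on, 16 of 17 were tested, 12 differences were negative and 4 positive, and the median was -0.20. None was called by limma, and 5 of the 16 were under an unadjusted p of 0.05, beside 2336 of all 18816 genes. Jun, the transcription factor after which the kinases are named, had levels of 4.37, 3.63 and 3.78 in OLETF, against 4.98, 4.49 and 4.74 in LETO. The OLETF arrays lay below the LETO arrays, with OLETF 1 nearest to them, and the difference was -0.81 (standard error 0.21, limma adjusted p 0.138). Without OLETF 1 the difference was -1.03 and limma's adjusted p was 0.0464. With the slide as a block, on the same 6 arrays, it was -0.36 with a limma adjusted p of 0.878. The size thus depended on which arrays entered and on whether the slide was a block.

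Irs1, the insulin receptor substrate that JNKs can phosphorylate, had levels of -3.54, -3.42 and -3.43 in OLETF, against -2.66, -3.22 and -2.75 in LETO. The OLETF arrays were lower without overlap, LETO 2 being the nearest. The difference was -0.59 (standard error 0.15, limma adjusted p 0.123), and without LETO 2 it was -0.76 with a limma adjusted p of 0.0272. With the slide as a block it was -0.67 with a limma adjusted p of 0.517. Irs1 was called in 1 of 20 alternative settings, the one without LETO 2.

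Genes known to regulate or bind DLK, drawn largely from work in neurons of mouse, fly and worm, gave 13 tested of 14. Of these, 9 differences were positive and 4 negative, with a median of 0.04, and none was called by limma. An unadjusted p under 0.05 was found for 1 of the 13, beside 2336 of all 18816 genes. Hsp90ab1, a chaperone known to stabilise DLK, had levels of 6.01, 6.04 and 6.07 in OLETF, against 5.75, 5.87 and 5.79 in LETO. The OLETF arrays were higher without overlap, by 0.24 (limma adjusted p 0.27). Nmnat2, an axon survival enzyme, differed by -0.20 (limma adjusted p 0.49).

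**Figure D3:**
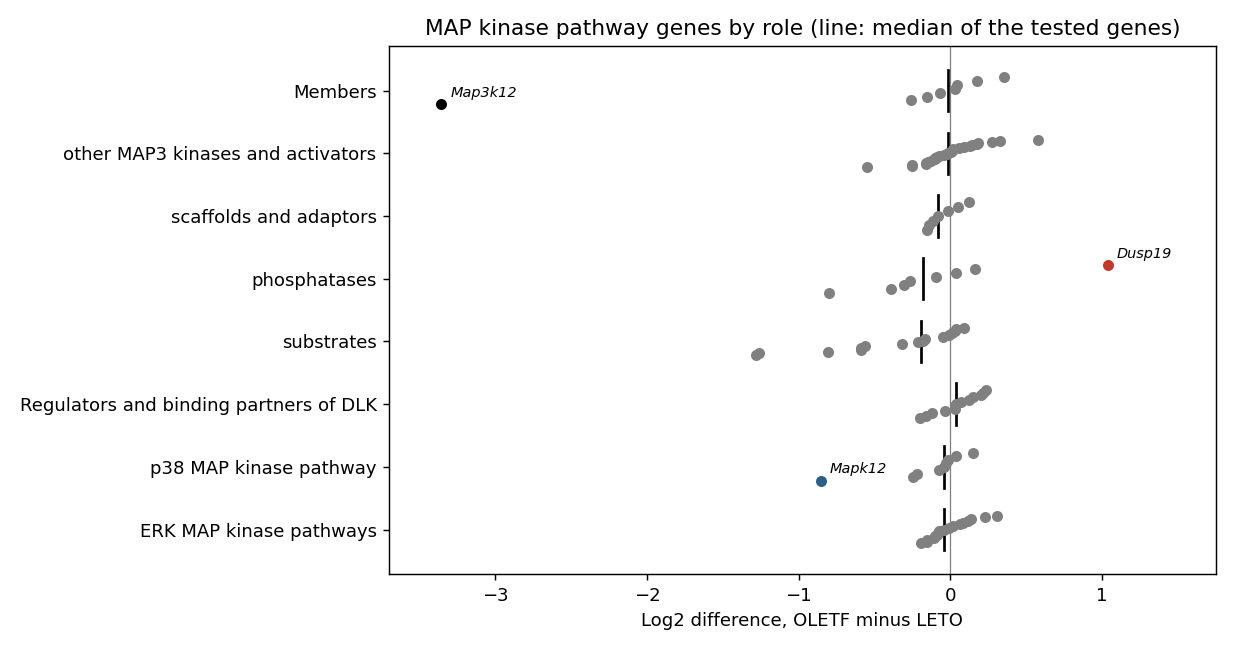
Log2 difference, OLETF minus LETO (x axis), for each tested gene of the members and of 7 lists of MAP kinase genes (y axis), with the vertical spread within a row for legibility only. Vertical lines are list medians, and coloured points had a limma adjusted p under 0.05 (Dusp19 higher in OLETF, Mapk12 lower). Map3k12, in black, was chosen by its difference and is shown as a description. All the medians lie between -0.20 and 0.04.

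In the parallel p38 and ERK cascades, 26 of 27 listed genes were tested, and Mapk12 alone was called by limma, lower in OLETF. Of all genes tested, 2.55% were called in either direction and 1.05% lower, so nothing is read from this count. Mapk12 encodes p38 gamma, the p38 kinase abundant in skeletal muscle. Its processed signal was 638.2, 462 and 580.8 intensity units in OLETF, against 989.6, 896 and 905.7 in LETO. All 3 OLETF arrays were below all 3 LETO arrays. Levels averaged -0.99 ± 0.08 in OLETF and -0.13 ± 0.08 in LETO (SD, n = 3 each), a difference of -0.85 (standard error 0.09, limma adjusted p 0.00474), or 1.81-fold lower. On the first slide alone it was -0.81, with a limma adjusted p of 0.277, and with the slide as a block limma's adjusted p was 0.103.

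The median difference was -0.04 over the 9 p38 genes and -0.04 over the 17 ERK genes. The ERK genes with the lowest p were Mapk6, an atypical ERK, with a difference of -0.19 (limma adjusted p 0.519), and Braf, a MAP3 kinase of the ERK relay, with -0.15 (limma adjusted p 0.589).

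Around Map3k12 on chromosome 7, 44 other tested genes had a probe within 1 Mb, and limma called 2 higher and 1 lower in OLETF, beside 2.55% of all genes called. Differences were positive for 17 and negative for 27, with a median of -0.04, and 10 had no overlap between the strains, beside 17.4% of all genes. The remaining 41 genes were not called in either direction.

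The gene called lower was Amhr2, 45.1 kb from the Map3k12 probe, which encodes the receptor of anti-Müllerian hormone and is best known from the gonads. Its processed signal was 25.5, 20.81 and 25.31 intensity units in OLETF, against 90.49, 71.38 and 85.38 in LETO, well above background on every array. The OLETF arrays lay together below the LETO arrays. Levels averaged -5.53 ± 0.10 in OLETF and -3.64 ± 0.10 in LETO (SD, n = 3 each), a difference of -1.90 (standard error 0.10, limma adjusted p 0.00025), or 3.73-fold lower. With normexp and quantile normalization the difference was -0.71, with a limma adjusted p of 0.00182. Its probe is shown because it is the single gene of the stretch called lower, at chr7:141210499-141210674 in rn4 (NM_030998), where its 60 bases span 176 bases of genome, with capitals for the longest run shared with another gene's probe.
Amhr2: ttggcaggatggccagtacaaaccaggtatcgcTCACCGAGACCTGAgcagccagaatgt

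Between Amhr2 and Map3k12 the tested genes were Prr13 and Pcbp2, and neither was called. Prr13, named here after its values were seen, differed by 0.32 (limma adjusted p 0.594). Pcbp2, which encodes an RNA-binding protein, is the nearest on one side at 1.956 kb, on the opposite strand. Its signal was 6521, 4938 and 6460 intensity units in OLETF, against 6902, 5940 and 6640 in LETO, a difference of -0.24 on the log2 scale with a limma adjusted p of 0.247. After scaling, its OLETF levels of 2.41, 2.48 and 2.40 lay below its LETO levels of 2.71, 2.64 and 2.65.

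Tarbp2, which encodes a partner of Dicer, is the nearest on the other side at 17.0 kb, and differed by -0.14 (limma adjusted p 0.736) with overlap. The transcript listed as TC600350, 795 kb away, was higher by 1.76 (standard error 0.21, limma adjusted p 0.00661). The unnamed probe A_64_P153556, 502 kb away, was higher by 0.88 (standard error 0.11, limma adjusted p 0.00908). On the first slide alone, and with the slide as a block, neither of these 2 was called by limma, and their differences were 1.65 and 0.81. A_64_P153556 was also not called without OLETF 2 (0.82), without OLETF 3 (0.90), or with normexp and quantile normalization (0.30).

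**Figure D4:**
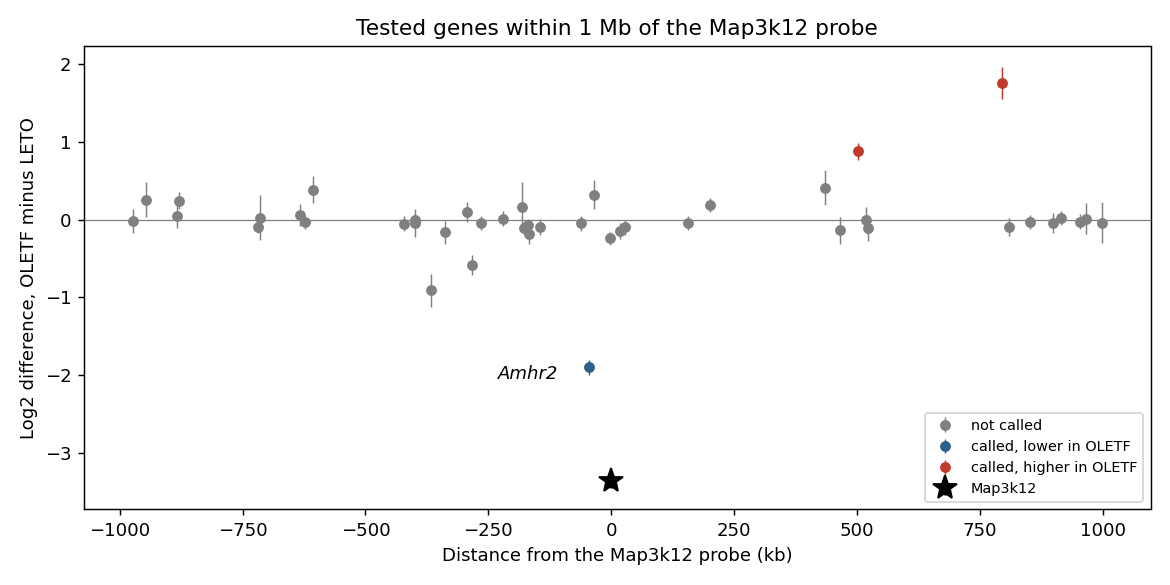
Log2 difference, OLETF minus LETO (y axis), with standard errors as bars, for the 44 tested genes within 1 Mb of the Map3k12 probe, by distance from it in kb (x axis). The star is Map3k12 at -3.36, the blue point is Amhr2 at -1.90, red points were called higher in OLETF, and grey points were not called.

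The 5 genes whose levels followed Map3k12 most closely over the 6 arrays were ENSRNOT00000002002 (Pearson r 0.999), Snrpb (0.999), Pbld (0.997), Rpusd4 (0.997) and the unnamed probe A_64_P117964 (0.996). Snrpb encodes a core protein of the spliceosome and Rpusd4 a mitochondrial pseudouridine synthase. Their differences were -1.46, -2.07, -2.71, -0.99 and -0.83, each smaller in size than that of Map3k12. Of 18815 other genes, 37 had r above 0.99 and 41 had r below -0.99. These values describe likeness only, since the 6 points fall into the 2 strains and any gene that separates them scores high.

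Among the members, r with Map3k12 was 0.958 for Mapk9, 0.478 for Map2k4, 0.285 for Map2k7, -0.108 for Mapk8, -0.117 for Mapk8ip1, -0.343 for Map3k11 and -0.918 for Map3k13. The members at the 2 ends of this order were those with no overlap between the strains.

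Markers of the other cells in ventricle were read beside these values. DLK is best known from neurons. Of 12 neuron markers, 8 were well above background on all arrays and 4 (Elavl4, Snap25, Nefl and Nefm) on none, and their summed linear level was 3.13 to 3.49 in OLETF and 3.3 to 4.23 in LETO, with none called by limma. Schwann cell markers summed to 4.4 to 5.04 in OLETF and 4.27 to 6.24 in LETO, with overlap.

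Lymphocyte markers, 7 on the list and 4 tested, summed to 0.84 to 0.981 in OLETF and 1.14 to 1.34 in LETO, without overlap, and 1 was called lower. Erythroid markers, of which 3 were on the array and 1 was tested, summed to 1.22 to 1.96 in OLETF and 0.153 to 0.3 in LETO, and that gene was called higher. The part of these cell types in the level of Map3k12 was not tested. The summed levels of atrial, fibroblast, endothelial, smooth muscle, macrophage and adipocyte markers overlapped between the strains, and none of their genes was called by limma. Gene by gene, all 3 tested smooth muscle markers had negative differences, with a median of -0.78. Of these, 2 were under an unadjusted limma p of 0.05, beside 2336 of all 18816 genes. All 4 atrial markers had negative differences too, with a median of -0.48. So did all 10 cardiomyocyte markers (median -0.09) and all 4 tested lymphocyte markers (median -0.60). Neuron, Schwann cell, fibroblast, endothelial and macrophage markers had differences of both signs. An unadjusted limma p under 0.05 was also found for 2 of 4 tested lymphocyte markers and 2 of 7 fibroblast markers. It was found for 1 of 7 endothelial, 1 of 8 neuron and 1 of 1 erythroid markers tested. No tested marker of the remaining lists was under it.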

How the data were processed

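Scanner files of 6 arrays, 3 OLETF and 3 LETO left ventricles, were used. The authors deposited 1-colour intensity values (background-subtracted, processed signal) from Agilent Feature Extraction, version 10.7.3.1 per the file headers and 9.1 per the submitters' processing notes. Annotation coordinates are rn4 per the deposited files. The authors' separate value table, of unstated scale, held linear signal values whose log2 correlated with the scanner signal at 1 on every array, with column medians of 0.167 to 0.176. Its centring stays unknown, and it served as an alternative.

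Of 42877 non-control spots (30367 probes), 260 to 356 per array carried outlier marks and were dropped, which left 17 probes with no spot on some array. Spots of a probe were averaged as log2, and each array's 75th percentile over probes was then subtracted. A probe was tested where every array of 1 strain or the other, 3 in each, read it well above background (21484 probes), and the tested probe with the highest mean stood for its gene. OLETF minus LETO was fitted with limma 3.58.1 (lmFit, eBayes) in R 4.3.3 on all 6 arrays, with Benjamini-Hochberg adjustment over 18816 genes and a threshold of 0.05. The scripts were tested on simulated data. No counts underlie arrays, so their number, 3 a strain, limits the precision.

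Labels gave strain and replicate number; 1 LETO sample has another number in its source name, and the title was followed. The members and gene lists were chosen with earlier results of these data known. Symbols were matched to the array's older names through RefSeq's table (170 of 177 list symbols found). Named were all members, every called list gene (or the 2 with the lowest p where none was called), called and nearest neighbours of Map3k12, and the 5 genes most like it. Alternatives covered scaling, background correction, the filter on dim probes, outlier spots, probe averaging, the slide, age, a replicate block and leaving out each array.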

Additional observations from a re-analysis of the deposited data

How the results depend on the processing

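Over 20 alternatives, none added after the data were seen, Map3k12 stayed lower in OLETF at -3.46 to -3.15, a direction that the choice of the gene fixes. The difference was -3.46 with the slide as a block and on the first slide alone, -3.15 with normexp and quantile normalization, and -3.41 to -3.30 when each array was left out in turn. The sign was kept in all 20 for Map3k13, Mapk9 and Map2k4, and in fewer for Map2k7 (19), Mapk8ip1 (19), Map3k11 (17) and Mapk8 (16). Several of the 20, such as the filters, the robust eBayes and the replicate block, leave a gene's difference as it was. The slide as a block and the first slide alone give the same difference, so these are not 20 separate checks. Genes called over the array numbered 480 (283 higher, 197 lower), but 105 (52 higher, 53 lower) with the slide as a block, 57 (36 higher, 21 lower) on the first slide alone, 240 (149 higher, 91 lower) without the filter on dim probes, 301 (166 higher) with a replicate block, and 199 to 615 (110 to 374 higher, 87 to 241 lower) with 1 array left out. The single arrays that moved this count most were OLETF 2 (199 without it), OLETF 3 (215), LETO 2 (281), OLETF 1 (314) and LETO 3 (317). The first slide alone keeps 1 OLETF array, assumed to vary like the LETO arrays. Of the JNK pathway genes outside the members, 2 were called with the slide as a block (Dusp19, Map3k2), with a replicate block (Dusp19, Jun) and with age as a covariate (Dusp19, Dusp1), 0 on the first slide alone, and 1 to 2 with 1 array left out. Of the p38 and ERK genes 0 were called with the slide as a block or on the first slide alone, and 1 with each array left out. Of the neighbours, 1 (Amhr2) was called with the slide as a block and on the first slide alone, 2 to 3 with 1 array left out, and 4 with a replicate block. Leaving out arrays gives fewer samples, while the slide as a block keeps all of them. Why these counts moved was not tested further. With the slide as a block the difference is that of OLETF 1 against the LETO arrays. Map3k2, called with that block, had a level of -1.79 on OLETF 1, against -3.76 and -3.54 on OLETF 2 and 3. Amhr2 was called in all 20 alternatives (-1.96 to -0.71), Dusp19 in 19, Mapk12 in 18 and TC600350 in 18. Correlations between arrays with the same replicate number were -0.0882, -0.137 and -0.00795, and none was best with its own number. Such arrays can share more than a number, since replicate 1 of each strain was aged 27 weeks and replicate 2 of each 28 weeks. Single genes can depart from these correlations. With a replicate block the standard error of Jun was 0.119, against 0.215 in the main fit. Each value rests on 3 arrays a strain and, for 7 of the 9 members, on 1 spot per probe and array.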

Other observations

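The 10 spots of Mapk8 and of Mapk8ip1 on each array give the spread between spots of the same array. Variation of labelling and hybridisation between arrays is not in it. For Mapk8ip1, a bright probe, the SD between spots was 0.0185 to 0.0342 on the log2 scale, below the SD between arrays of 0.05 in OLETF and 0.18 in LETO. For Mapk8, a dim probe, the SD between spots was 0.0855 to 0.192, against an SD between arrays of 0.37 in OLETF and 0.14 in LETO. The Mapk8 signal of OLETF 2 was 35.93 to 47.44 intensity units over its spots, below every Mapk8 spot of OLETF 1 (82.16 to 109.7) and of OLETF 3 (79.86 to 103.1). The low Mapk8 level of OLETF 2 was thus shared by all 10 of its spots.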
